A study of Mus musculus with 6 samples.

Results

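Eph receptors, ephrins, semaphorins, plexins and neuropilins were examined in mouse embryonic stem cells kept with or without a vitamin C derivative. The members were all rows of the deposited expression table whose platform annotation gives a single gene symbol of an Eph receptor, an ephrin, a semaphorin of classes 3 to 7, a plexin, Nrp1 or Nrp2. They came to 55 array features for 52 genes, of 23521 features for 22180 genes with a single symbol. By role they were 14 features of Eph receptors (13 genes), 8 of ephrins (8 genes), 20 of semaphorins (20 genes), 11 of plexins (9 genes) and 2 of neuropilins. Ephb1, Plxna1 and Plxnb1 had 2 features each, and Ephb2 was not analysed here.

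The cells were R1, a male embryonic stem cell line from a 129X1 x 129S1 mouse embryo, so that every array came from a single line. Both groups grew on a gelatin coat, fed medium with fetal bovine serum and the self-renewal cytokine LIF. The treated cells received 0.74 mM (250 µg/ml) AA2G for 3 days, a stable glucoside of ascorbic acid that the labels call ascorbic acid 2-glucose, and the untreated cells received none. Each group had 3 cultures, described as independent replicates, and total RNA of each was hybridised to its own Affymetrix mouse gene array. The comparison asks which transcripts differ after AA2G, and all values are log2 expression values as deposited, on which a difference of 1 is a factor of 2.

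Eph receptors are receptor tyrosine kinases, and their ephrin ligands are held on the surface of the neighbouring cell, so signalling needs contact between cells. A-type ephrins are anchored by a lipid and B-type ephrins span the membrane, and ephrins can also signal back into the cell that carries them. Semaphorins are secreted or membrane-bound cues read by plexins, and most secreted class 3 semaphorins need a neuropilin as co-receptor. These families are known for axon guidance, boundary formation and vessel patterning, and several members are used in the early embryo.

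Array medians lay between 5.06 and 5.10 and correlations between arrays were r = 0.9902 to 0.9924 within groups and r = 0.9886 to 0.9912 across groups, computed over features and so without independent replicates. All 8 embryonic stem cell markers were measured, with values between 7.18 and 12.2. The limma fit called 0 of these 8, while 6 of the 8 differences were negative (52.3% of all features were), with a median of -0.11. By unadjusted p under 0.05, 3 of the 8 (37.5%) were lower, each with all AA2G arrays lower. Over all 23521 features 5.06% were lower by this p, and 8.48% had all AA2G arrays lower. These 3 were Klf4 (-0.31, limma adjusted p = 0.127), Nanog (-0.17, 0.445) and Pou5f1 (-0.16, 0.455). Of 42 features of neural, mesoderm, primitive endoderm, trophoblast, endothelial and fibroblast markers, the limma fit made 0 calls. By unadjusted p under 0.05, 3 were higher and 4 lower, in all 16.7% against 9.71% of all features. Of 7 endothelial markers, 4 differences were positive and 3 negative, with a median of 0.02. Their summed linear level was 701 to 753 on AA2G arrays and 580 to 676 on untreated arrays. It was carried mainly by Pecam1 (0.25, limma adjusted p = 0.438), with means of 9.08 with AA2G and 8.83 in untreated cells. Tek (0.48, limma adjusted p = 0.0867) added less, with means of 5.84 and 5.36. The summed linear level of 8 primitive endoderm markers was 663 to 689 on AA2G arrays and 595 to 633 on untreated arrays, carried by Sparc (0.34, limma adjusted p = 0.0925). Of these 8 differences 5 were positive and 3 negative, with a median of 0.03. The negative ones were Sox7 (-0.20), Gata6 (-0.16) and Dab2 (-0.27). Among 7 trophoblast markers Krt8 was at -0.35 (limma adjusted p = 0.0894), with all AA2G arrays lower. Of these 7 differences 4 were positive and 3 negative, with a median of 0.02. The part of these markers in the results below was not tested. The table has no detection calls, so low values cannot be told from background, and in bulk RNA fewer cells with a transcript and less transcript per cell cannot be told apart.

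AA2G was compared with untreated cells in limma over all 23521 features with Benjamini-Hochberg adjustment, and a feature was called at an adjusted p under 0.05. Of the 55 features, 1 rose (Epha4), 1 fell (Sema3e) and 53 did not pass. Over these 23521 features, the set meant by all features here, the called share was 0.761%, with 0.608% for rises and 0.153% for falls. The median log2 fold change was -0.04 over the members and -0.01 over all features, and 34 of the 55 values (61.8%) were negative, against 52.3% of all features. Before adjustment, p was under 0.05 for 4 higher members (4.66% of all features) and 7 lower ones (5.06% of all features), in all 20.0% of the members against 9.71% of all features. The 3 AA2G arrays lay wholly above the 3 untreated arrays for 5 members (7.21% of all features) and wholly below them for 9 (8.48% of all features), which makes 25.5% of the members against 15.7% of all features. These shares describe the members and were not tested against the other features. Among 34 members with a mean above 4.99, the percentile 40 of all features, 10 had an unadjusted p under 0.05, and among the 21 dimmer members 1 had. The same split was not counted over all features, so it cannot be read as particular to the members.

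**Figure D1:**
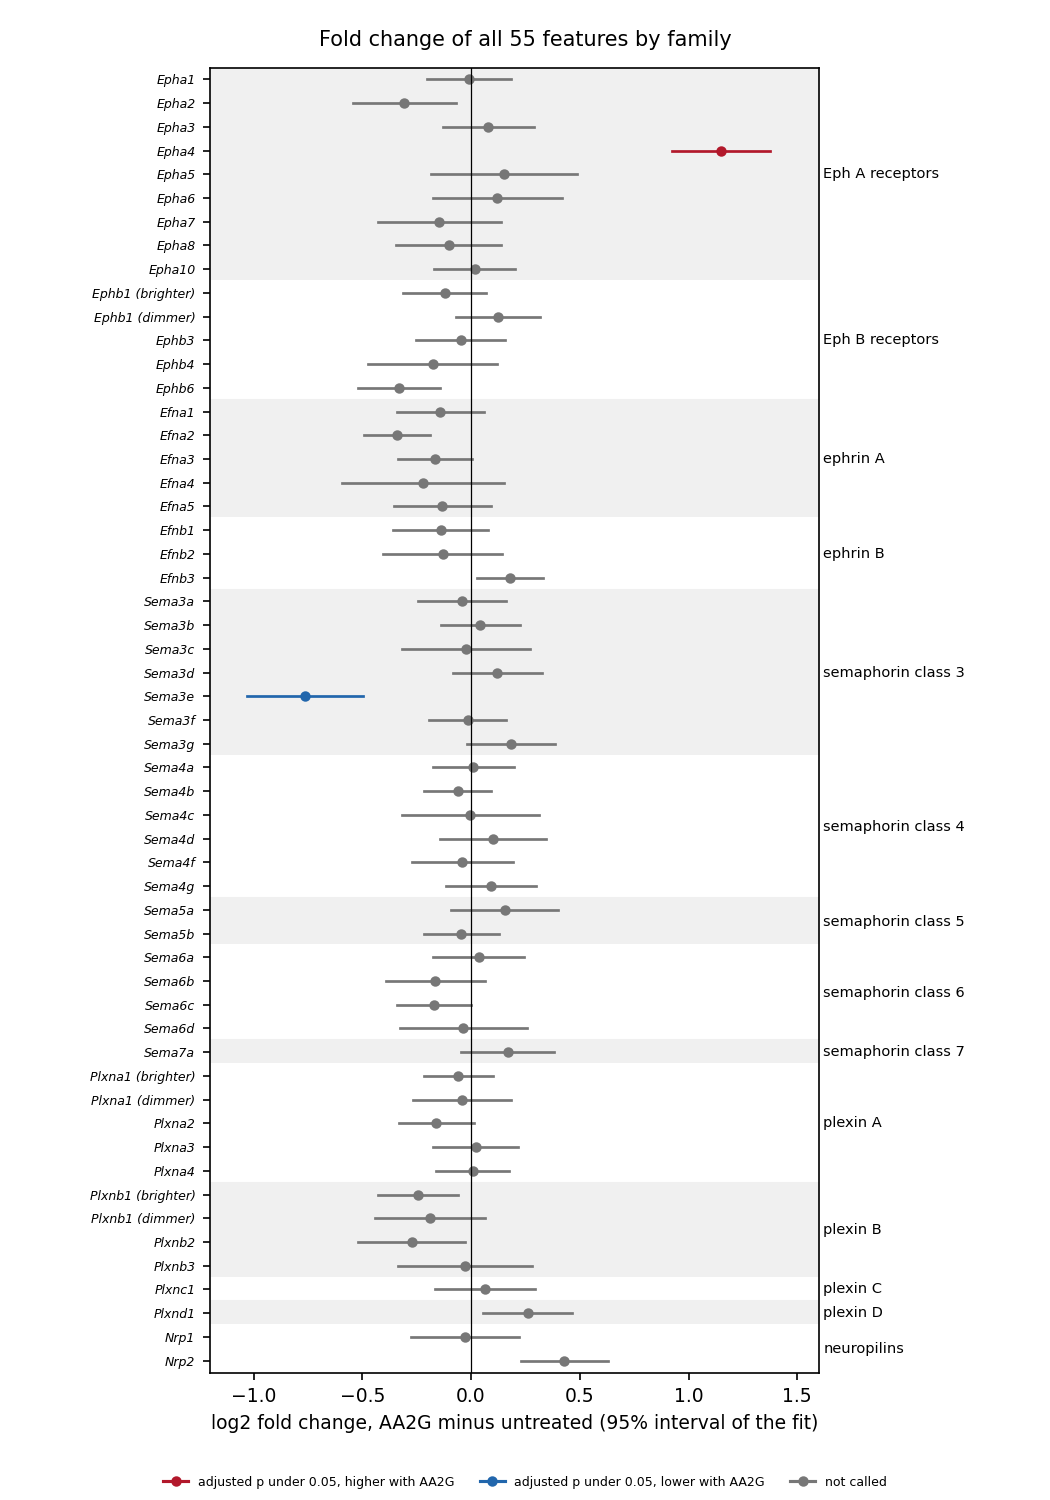
Log2 fold change, AA2G minus untreated, of each of the 55 features with the 95% interval of the limma fit, grouped by family. Epha4 (1.15) is the single called rise and Sema3e (-0.76) the single called fall, and the other 53 points lie between -0.34 and 0.43.

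Epha4 (Entrez Gene 13838, chromosome 1), a receptor that binds both A-type and several B-type ephrins, had the largest difference of all members. It stood at 9.08, 9.19 and 9.13 on the AA2G arrays, against 8.16, 7.82 and 7.98 on the untreated arrays. Every AA2G array lay above every untreated array, and the gap between the groups was wider than the spread within either. Epha4 averaged 9.13 ± 0.06 with AA2G and 7.99 ± 0.17 in untreated cells (SD, n = 3 each). The rise was 1.15 ± 0.10 on the log2 scale (SE, 95% interval 0.92 to 1.37), or 2.22-fold, with a limma adjusted p of 0.00205. It ranked 40 by size among the 143 called rises of the 23521 features, whose median was 0.89. The call held in each of the 14 alternative fits, with an adjusted p between 0.000263 and 0.0255.

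The promoter window of Epha4 is shown because it belongs to the only receptor gene of these families that was called. It covers chr1:77515039-77515338 on the minus strand of GRCm38.p6, from 250 bases before to 50 bases after the annotated start, with CG dinucleotides, the sites of most DNA methylation in mammals, in capitals. The sequence is that of RefSeq, read 5′ to 3′ along the gene.
Epha4: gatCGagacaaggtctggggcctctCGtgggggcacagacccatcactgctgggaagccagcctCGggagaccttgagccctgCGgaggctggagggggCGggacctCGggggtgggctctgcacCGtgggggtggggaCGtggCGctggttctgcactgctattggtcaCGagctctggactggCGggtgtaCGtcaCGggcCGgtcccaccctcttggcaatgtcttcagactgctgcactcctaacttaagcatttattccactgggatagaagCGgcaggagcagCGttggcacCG
It holds 17 CG dinucleotides, more than the median of 7 over 32851 promoters of this length in the same table. The median over promoters of the member genes was 19.5, above the count for Epha4. Its G and C content is 64.0%. Searched on both strands, it contains GGGCGG, the GC box, 154 bases before the start, and ATTGG, the reverse complement of CCAAT, 88 bases before it. The GC box letters occur in 35.7% and the CCAAT letters in 37.4% of all promoters in the table. Neither CACGTG nor TATAAA occurs in this window.

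The other A-type Eph receptors did not show a difference of this size. For the 8 other Eph A features the fold changes ran from -0.31 to 0.15 with a median of 0.00, 4 were positive and 4 negative, and limma called 0 (by unadjusted p, 0 higher and 1 lower). Their median level was 5.28, 5.10 and 4.97 on the AA2G arrays and 5.27, 5.29 and 5.17 on the untreated arrays, so the groups overlapped. The highest upper bound among their 95% intervals was 0.49, for Epha5, below the lower bound of 0.92 for Epha4. The difference between Epha4 and its family was not itself tested.

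Epha2, an Eph receptor of epithelia and of embryonic stem cells, is the member of this family that pointed furthest the other way. Its values were 8.18, 8.40 and 8.39 with AA2G, against 8.50, 8.79 and 8.59 in untreated cells. The groups did not overlap, but the difference of -0.31 ± 0.10 did not pass (limma adjusted p = 0.345). Epha1 (-0.01), Epha8 (-0.10) and Epha10 (0.02), a receptor without kinase activity, were within error of 0. Epha3 (0.08), Epha5 (0.15), Epha6 (0.12) and Epha7 (-0.15) had mean values between 3.72 and 5.07 in both groups, near or below the dimmer 40% of features, where an array understates differences.

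Among the B-type receptors limma called 0 of 5 features (by unadjusted p, 0 higher and 1 lower). Ephb6, whose product lacks kinase activity, stood at 4.99, 4.86 and 4.83 with AA2G, against 5.16, 5.32 and 5.19 in untreated cells. All AA2G values were below all untreated values, with a difference of -0.33 ± 0.08 that did not pass (limma adjusted p = 0.167). The AA2G mean of Ephb6 (4.89) lies under 4.99 and cannot be told from background. Ephb3, the brightest feature of this group, had 7.23, 7.46 and 7.37 with AA2G and 7.50, 7.31 and 7.40 in untreated cells. These groups overlapped, and the difference of -0.05 had a 95% interval of -0.25 to 0.16. Ephb4, known from veins, was at -0.18 ± 0.13. The 2 features of Ephb1 disagreed in sign, at -0.12 and 0.12, and both had group means under 4.99.

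Of the 8 ephrin genes, which encode the ligands of these receptors, 7 had a negative value and 1 a positive one, with a median of -0.14, and limma called 0 (by unadjusted p, 1 higher and 1 lower). Of all features 52.3% were negative. All 5 A-type ephrins were lower on average with AA2G, between -0.34 and -0.13. Efna5, like Efnb2 of the B class, had group means under 4.99 and cannot be told from background. Efna2 stood nearest to the threshold, at 7.33, 7.32 and 7.30 with AA2G, against 7.69, 7.65 and 7.63 in untreated cells. Its replicates lay close together in both groups and the groups were apart, but the difference was small. At -0.34 ± 0.07 (95% interval -0.49 to -0.19) it had a limma adjusted p of 0.0849. It passed in 3 of 14 alternative fits, with a trended robust prior (0.0391), array weights (0.0272) and brighter features only (0.0336).

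Efna3, the brightest ephrin A feature, had 7.65, 7.60 and 7.54 with AA2G, against 7.77, 7.69 and 7.83 in untreated cells. The groups did not overlap, and the difference of -0.16 ± 0.07 did not pass (limma adjusted p = 0.525). Efna1, Efna3 and Efna4 are adjacent genes on chromosome 3, and the values of Efna1 and Efna4 were -0.14 ± 0.09 and -0.22 ± 0.16. Efna5 was at -0.13 ± 0.10. In the B class, Efnb1 and Efnb2 were at -0.14 ± 0.09 and -0.13 ± 0.12, while Efnb3 pointed upward. It had 6.61, 6.60 and 6.66 with AA2G, against 6.45, 6.45 and 6.44 in untreated cells, and the groups were apart. Its difference of 0.18 ± 0.07 did not pass (limma adjusted p = 0.411).

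**Figure D2:**
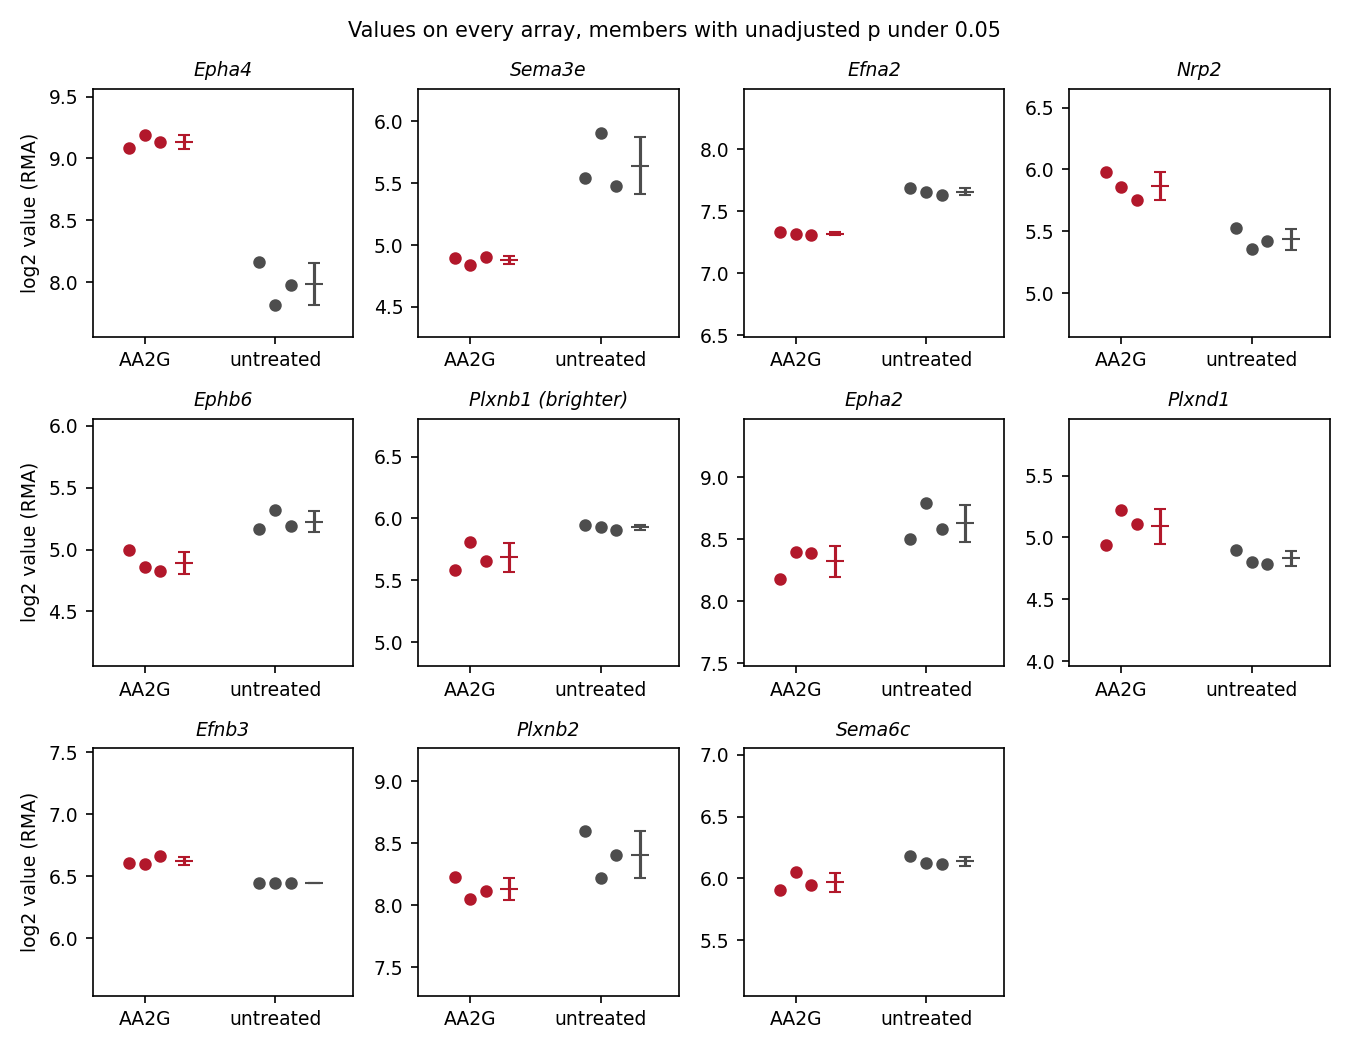
Log2 values of the 11 members with an unadjusted p under 0.05, in order of p, on each AA2G array (red) and each untreated array (grey), with the mean and SD of 3 arrays beside the points. Each panel spans 2 units on the log2 axis, so the separation of Epha4 and Sema3e can be set against the smaller steps of the other 9 features.

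Sema3e (Entrez Gene 20349, chromosome 5), a secreted semaphorin that binds plexin D1 directly and does not need a neuropilin, was the single member that fell. Its values were 4.90, 4.84 and 4.90 on the AA2G arrays, against 5.54, 5.91 and 5.47 on the untreated arrays. The AA2G arrays were close together and all below the untreated arrays, which spread more widely. Sema3e averaged 4.88 ± 0.04 with AA2G and 5.64 ± 0.23 in untreated cells (SD, n = 3 each). The fall was -0.76 ± 0.12 on the log2 scale (SE, 95% interval -1.03 to -0.50), or 1.70-fold lower between the deposited levels, with a limma adjusted p of 0.0284. The AA2G level lies just under the percentile 40 of all features (4.99) and cannot be told from background, so the size of the fall in transcript is not settled by this value.

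The call of Sema3e was less stable than that of Epha4. It was lost when any AA2G array was left out, with a limma adjusted p of 0.0884, 0.135 and 0.115 without replicates 1, 2 and 3. It was lost as well without untreated replicate 1 (0.0714) or untreated replicate 3 (0.0590), and it held without untreated replicate 2 (0.0304). It was also lost when all 41345 features, with or without a single symbol, entered the fit (0.101). The value itself stayed negative, between -0.85 and -0.63 over the 14 alternative fits.

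The promoter window of Sema3e is shown in the same form because it belongs to the only ligand gene of these families that was called. It covers chr5:14025026-14025325 on the plus strand of GRCm38.p6.
Sema3e: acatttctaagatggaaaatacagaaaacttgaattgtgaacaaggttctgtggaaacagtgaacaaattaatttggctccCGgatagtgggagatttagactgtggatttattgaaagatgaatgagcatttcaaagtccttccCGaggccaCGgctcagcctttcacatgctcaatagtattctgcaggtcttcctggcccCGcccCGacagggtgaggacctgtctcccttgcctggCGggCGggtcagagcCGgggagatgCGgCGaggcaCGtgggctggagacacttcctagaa
It holds 11 CG dinucleotides, against 17 in the Epha4 window and a median of 7 over all promoters, with a G and C content of 50.7%. The GC box letters GGGCGG occur 9 bases before the start, and again on the other strand, as CCGCCC, 48 bases before it. CACGTG, the palindromic E-box, begins at base 24 after the start, a motif found in 7.15% of all promoters in the table. Neither CCAAT nor TATAAA occurs in this window. Over 60 promoters of 46 member genes the count of CG dinucleotides ran from 2 to 56 with a median of 19.5.

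The other class 3 semaphorins are secreted ligands of the neuropilin and plexin A receptors. For these 6 features the log2 fold changes ran from -0.04 to 0.18 with a median of 0.01, 3 were positive and 3 negative, and limma called 0 (also 0 by unadjusted p). Their median level was 4.88, 4.84 and 4.96 on the AA2G arrays and 4.80, 4.79 and 4.92 on the untreated arrays. These ranges overlapped. Sema3a, Sema3c and Sema3d averaged under 4.99 in both groups and cannot be told from background. The difference between Sema3e and its class was not itself tested. Sema3f, the brightest of the class, had 6.83, 6.81 and 6.79 with AA2G, against 6.93, 6.74 and 6.81 in untreated cells, with a difference of -0.01. Sema3g was at 0.18 ± 0.09, with its groups apart (limma adjusted p = 0.566), and Sema3b at 0.04 ± 0.08.

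Sema3e shares its stretch of chromosome 5 with relatives. In RefSeq order Sema3d and Sema3a are adjacent, Sema3e follows after 3 other protein-coding genes and Sema3c after 15 more. Along this order the log2 fold changes were 0.12 for Sema3d, -0.04 for Sema3a, -0.76 for Sema3e and -0.02 for Sema3c. Among the 4 nearest protein-coding genes on each side of Sema3e, 5 had a feature, and their values ran from -0.10 (Pclo) to 0.22 (Speer4e) with limma adjusted p of 0.717 or more. All 5 had group means of 4.25 or less, under 4.99, as did Sema3c and Sema3d, so these values cannot be told from background and do not set Sema3e apart from its surroundings. Of the 8 genes placed likewise around Epha4 all had a feature, from -0.15 (Obsl1) to 0.12 (Pax3), with limma adjusted p of 0.755 or more.

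The membrane-bound semaphorins of classes 4 to 7 held 0 limma calls among 13 features (by unadjusted p, 0 higher and 1 lower). In class 4, Sema4b, its brightest feature, had 8.53, 8.52 and 8.49 with AA2G, against 8.55, 8.63 and 8.56 in untreated cells. The arrays were apart by little, and the difference was -0.06 ± 0.07. The other 5 genes of the class, among them the immune semaphorins Sema4a (0.01) and Sema4d (0.10), ran from -0.04 to 0.10. In class 5, Sema5b had 7.14, 7.02 and 7.16 with AA2G, against 7.13, 7.21 and 7.12 in untreated cells, with overlapping groups and a difference of -0.04. Sema5a was at 0.15 ± 0.11, with group means under 4.99.

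In class 6, whose members bind A-type plexins, Sema6c had 5.90, 6.06 and 5.95 with AA2G, against 6.18, 6.12 and 6.12 in untreated cells. The groups were apart, and the difference of -0.17 ± 0.07 did not pass (limma adjusted p = 0.508). Sema6a, Sema6b and Sema6d were at 0.03, -0.16 and -0.04, and the group means of Sema6a and Sema6d were under 4.99. Sema7a, the lipid-anchored semaphorin that can act through integrins, had 6.18, 6.43 and 6.29 with AA2G, against 6.07, 6.07 and 6.26 in untreated cells. These groups overlapped, and its difference was 0.17 ± 0.09 (limma adjusted p = 0.642).

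**Figure D3:**
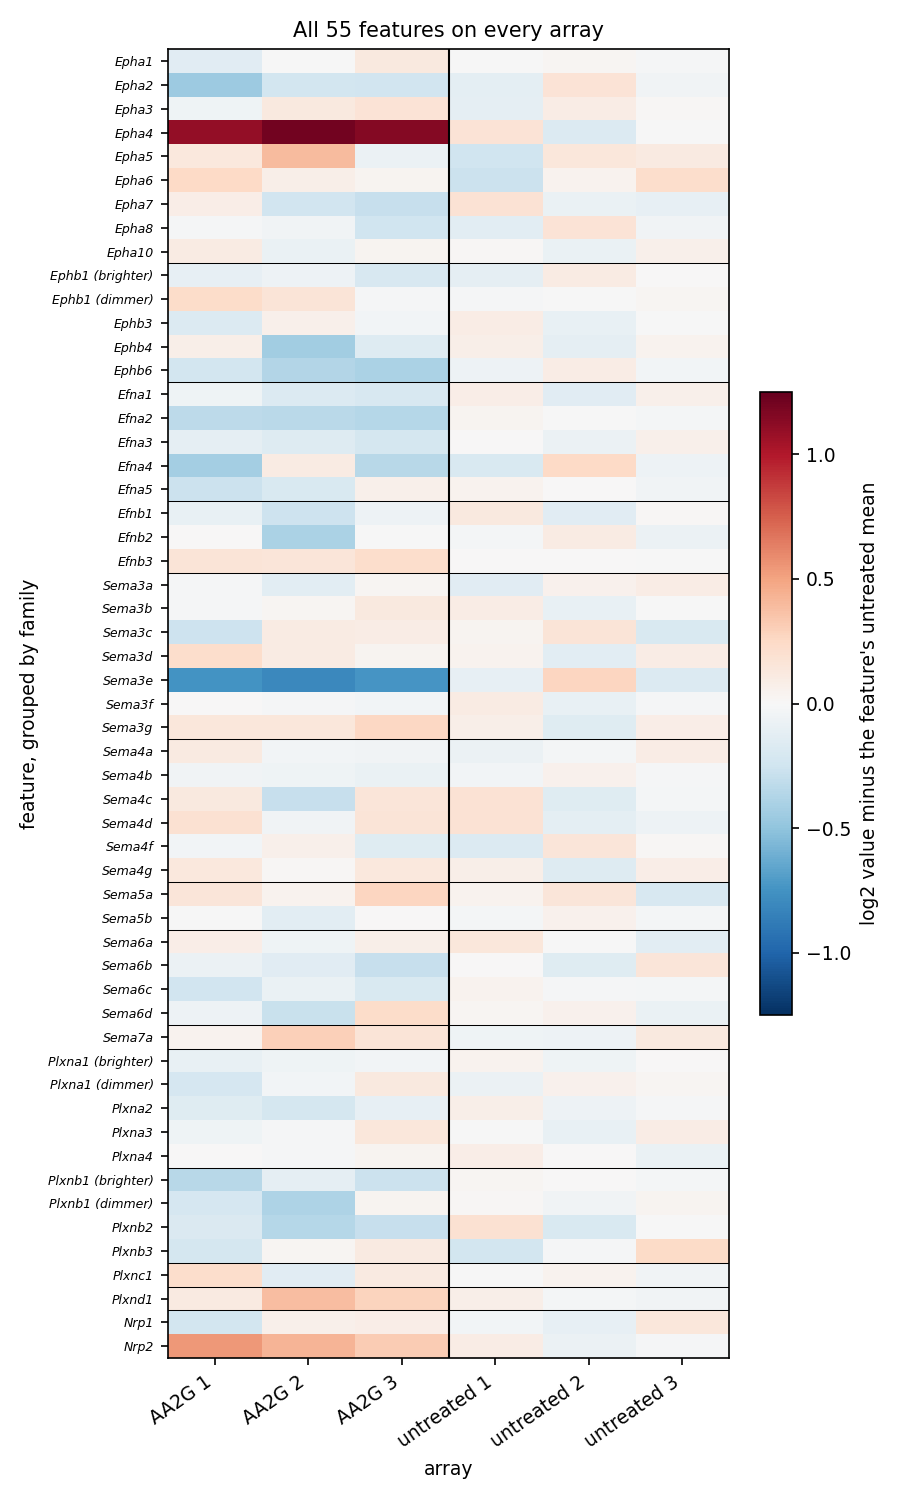
Colour shows the log2 value of each of the 55 features on each array minus that feature's untreated mean, with the 3 AA2G arrays on the left and the 3 untreated arrays on the right, and lines between families. Epha4 is the single row with strong red and Sema3e the single row with strong blue on all 3 AA2G arrays, while untreated replicate 2 stands apart in the Sema3e row at 5.91.

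Among the semaphorin receptors, 0 of 11 plexin features and 0 of 2 neuropilin features were called by limma. By unadjusted p, 1 plexin feature was higher and 2 were lower, and 1 neuropilin feature was higher. Plxnd1, the receptor of Sema3e, had 4.94, 5.22 and 5.11 with AA2G, against 4.90, 4.81 and 4.79 in untreated cells. The AA2G arrays were all higher, the direction opposite to that of its ligand, but the difference of 0.26 ± 0.09 did not pass (limma adjusted p = 0.363). The untreated mean of Plxnd1 (4.83), like the AA2G mean of Sema3e (4.88), lies under 4.99 and cannot be told from background. A link between the differences of ligand and receptor was not tested. Nrp2, a co-receptor of class 3 semaphorins and of vascular growth factors, had 5.98, 5.86 and 5.75 with AA2G, against 5.53, 5.36 and 5.42 in untreated cells. The groups were apart, with a difference of 0.43 ± 0.09 (95% interval 0.23 to 0.63, limma adjusted p = 0.0894). It passed in 2 of 14 alternative fits, with array weights (0.0399) and brighter features only (0.0458). Nrp1 was dim, at 3.79 ± 0.17 with AA2G and 3.81 ± 0.13 in untreated cells (SD, n = 3 each), a difference of -0.03.

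The B-type plexins, receptors of class 4 semaphorins, had 4 negative values in 4 features of 3 genes, with a median of -0.22. Of all features 52.3% were negative. Plxnb2 had 8.23, 8.05 and 8.12 with AA2G, against 8.60, 8.22 and 8.41 in untreated cells. The groups overlapped at 1 array each, and the difference was -0.27 ± 0.11 (limma adjusted p = 0.449). The brighter feature of Plxnb1 had 5.59, 5.81 and 5.66 with AA2G, against 5.95, 5.93 and 5.91 in untreated cells. These groups were apart, with a difference of -0.24 ± 0.08 (limma adjusted p = 0.339), and the dimmer feature pointed the same way at -0.19 ± 0.11. Plxnb3 was at -0.03 ± 0.13. Both Plxnb3 and the dimmer Plxnb1 feature had group means under 4.99 and cannot be told from background.

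The A-type plexins, which pair with neuropilins, lay between -0.16 (Plxna2) and 0.02 (Plxna3). Plxna2 had group means under 4.99 and cannot be told from background. The brighter feature of Plxna1 had 7.96, 8.0 and 8.02 with AA2G, against 8.10, 8.0 and 8.06 in untreated cells. The groups overlapped, and the difference of -0.06 had a 95% interval of -0.22 to 0.10, while its dimmer feature was at -0.04. Plxnc1, the receptor of Sema7a, had 4.25, 3.89 and 4.14 with AA2G, against 4.02, 4.08 and 3.99 in untreated cells. Its difference was 0.06 with overlapping groups, and these values under 4.99 cannot be told from background. Split by role, the 27 receptor features had a median of -0.03 with 1 called rise, and the 28 ligand features a median of -0.04 with 1 called fall.

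Genes that act with these families, and a list of other guidance genes, held 0 limma calls in either direction. By unadjusted p under 0.05, 4.66% of all features were higher and 5.06% lower, 9.71% in all. Of 32 features for 29 Eph and ephrin signalling partners, 1 was higher and 2 were lower by unadjusted p (9.4% in all), and their median was -0.01. Inppl1, a lipid phosphatase that binds Epha2, was at -0.29 ± 0.08 (limma adjusted p = 0.206) and the adaptor Nck2 at -0.20 ± 0.07 (0.414). Rgs3, which binds B-type ephrins, was at 0.19 ± 0.09 (limma adjusted p = 0.562). The Rac regulator Chn1, which acts below Epha4, was at 0.21 ± 0.09 (limma adjusted p = 0.492). The Chn1 means of 3.06 with AA2G and 2.85 in untreated cells were under 4.99, so its value cannot be told from background. Of 30 features for 29 semaphorin and plexin signalling partners, 0 were higher and 4 were lower by unadjusted p (13.3% in all), with a median of -0.02.

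The largest difference among the partners was that of Crmp1, a cytoplasmic mediator of semaphorin signals. It had 6.30, 6.76 and 6.42 with AA2G, against 6.95, 7.56 and 7.21 in untreated cells. The groups were apart, and the difference of -0.75 ± 0.17 did not pass (limma adjusted p = 0.130). Its relatives Dpysl5 and Dpysl3 were at -0.23 ± 0.08 and -0.29 ± 0.11 (limma adjusted p = 0.394 and 0.395), and the protease Furin, which cuts class 3 semaphorins, at -0.19 ± 0.07 (0.388). Of 28 features for 27 netrin, slit, RGM, Flrt, Adgrl and other guidance genes, 0 were higher and 4 were lower by unadjusted p, with a median of -0.04. That share was 14.3%, against 9.71% of all features. The 4 lower ones were Flrt3 (-0.40), Ntn1 (-0.27), Adgrl1 (-0.22) and Adgrl2 (-0.36), with limma adjusted p from 0.218 to 0.473.

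**Figure D4:**
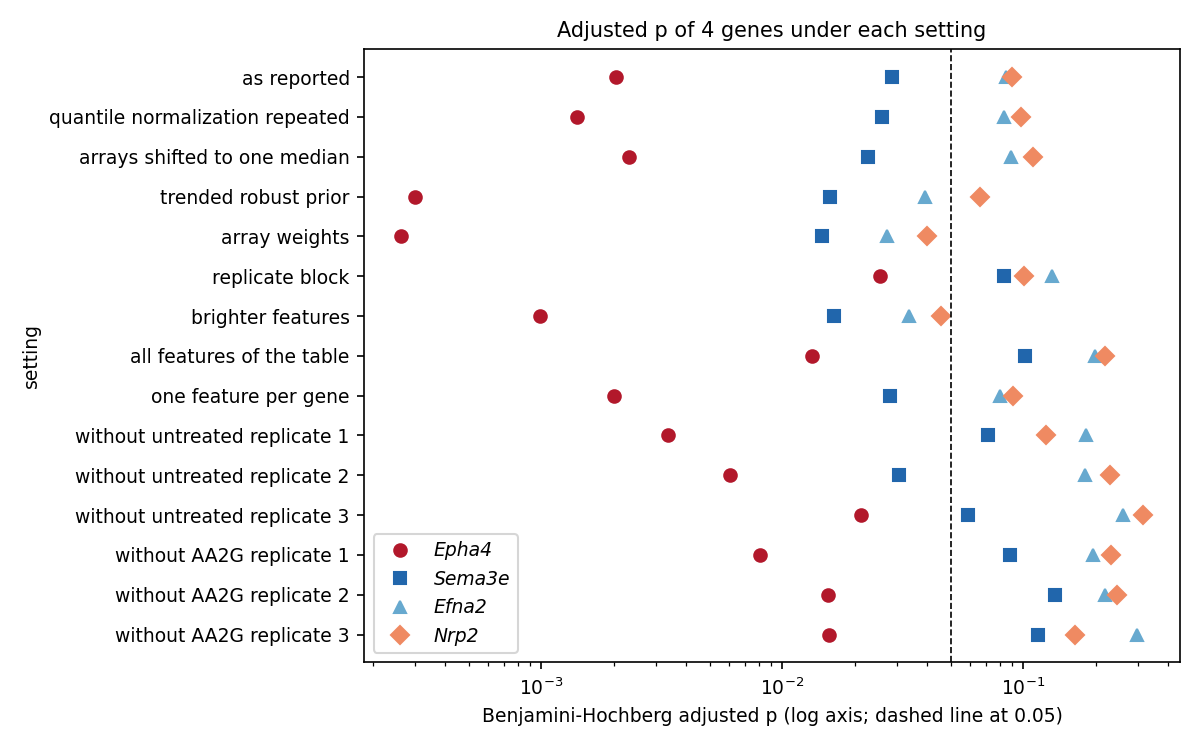
Benjamini-Hochberg adjusted p (log axis) of Epha4, Sema3e, Efna2 and Nrp2 in the fit as reported and in 14 alternative fits. Epha4 lies left of the dashed threshold of 0.05 in all 15 rows, while Sema3e crosses it to the right in 7 of the 14 alternatives and Efna2 and Nrp2 cross it to the left in 3 and 2.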

How the data were processed

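The deposited log2 values were made by the authors with RMA in Expression Console of Affymetrix (submitters' processing notes). Versions, annotation release and genome build were not given in the sources used here. RMA corrects background, normalizes quantiles and summarises features, so a change in total RNA per cell is not seen and dim features understate differences. The number of arrays limits the precision.

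Of 41345 features, 23521 have 1 annotated symbol, 1814 have several and 16010 have no listed symbol; features with 1 symbol were tested. All 55 members matched RefSeq (GRCm38.p6) by Entrez identifier, and 46 of the 52 genes had a promoter there. AA2G was compared with untreated cells in R 4.3.3 with the lmFit and eBayes functions of limma 3.58.1 (default prior, two-sided, no covariate, 6 arrays), with Benjamini-Hochberg adjustment over the features tested. The p-values measure the spread between 3 cultures a group, and no batch is named in the labels. The fit was tested on simulated data.

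Every array is given for Epha4, Sema3e, members with an unadjusted p under 0.05 and the brightest feature of each family, and for other lists up to 4 genes with the smallest p. Members and lists were chosen with earlier results of these data known. Alternatives were 2 normalizations, 3 choices of features, a robust prior with trend, weighted arrays, replicate number as block, and each array left out.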

Additional observations from a re-analysis of the deposited data

How the results depend on the processing

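The called members were Epha4 and Sema3e. The count of members called lower was 2 with a trended robust prior, 2 with array weights and 2 with brighter features (Sema3e and Efna2 each time), and 0 with all features of the table. With 1 array left out it ran from 0 to 1. The count of members called higher was 2 with array weights and 2 with brighter features (Epha4 and Nrp2), and 1 with each array left out. Arrays with the same replicate number had correlated deviations of r = 0.23, 0.22 and 0.02 for replicates 1, 2 and 3. Each correlated best with its own number, a hint from the data and not from the design, so the numbers were not taken as pairs. With the replicate block the count of members called lower was 0 (Sema3e at an adjusted p of 0.0832) and that of members called higher was 1 (Epha4, 0.0255), beside 130 higher and 25 lower calls over all features. Calls over features with 1 symbol, 143 higher and 36 lower as reported, became 303 and 193 with array weights. They were 198 and 79 with the trended robust prior, 165 and 86 with brighter features, and 58 and 6 without untreated replicate 3. With all features of the table in the fit, 73 higher and 12 lower calls fell on features with 1 symbol. Calls on the remaining features of that fit were not counted. The sign of Sema3f turned with quantile normalization repeated (9.82e-05). With 1 array left out signs also turned within -0.103 to 0.0129 for Ephb3, -0.0593 to 0.0386 for Sema3f, -0.0712 to 0.000766 for Sema5b and -0.0143 to 0.164 for Plxnc1, none of them called. Of the other 247 values of single genes, direction and side of the threshold stayed as reported. Fitting all features adjusts over more tests and leaving out an array lowers the number of arrays, while the cause of the other changes was not tested. Without detection calls, signal over background limits Sema3e and the dim members.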
